A study of Mus musculus with 9 samples.

Results

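The 5 genes of the Ikaros family (Ikzf1, Ikzf2, Ikzf3, Ikzf4 and Ikzf5) were examined in mouse leukaemia cells in which Brg1, the motor protein of SWI/SNF, a complex that slides and evicts nucleosomes, had been knocked down. The genes were taken by name, as every probe set to which the platform annotation gives 1 of these symbols alone. This gave 6 of 34760 probe sets and 5 of 19937 genes, and Ikzf5 had a pair of probe sets. Ikzf2 was chosen by its rise over the control hairpin, measured in these same arrays. Its change against the control is therefore described without a test, while the other 4 genes, and the differences among hairpins for all 5, were tested.

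All 9 arrays came from RN2, an acute myeloid leukaemia line of the mouse that carries MLL-AF9 and NrasG12D. The tested cells carried 1 of 3 hairpins against Brg1, named Brg1sh_3232, Brg1sh_3364 and Brg1sh_4935 (2 arrays each), in the TRMPV vector. The control cells carried Rluc, a TRMPV hairpin against Renilla luciferase (3 arrays). Every group received 1 ug/ml doxycycline for 96 h to switch its hairpin on, so no array shows cells without doxycycline. RN2 is a single cell line, and the labels add the term TtTMPV to the line's name for Rluc arrays and not for Brg1 hairpin arrays. This difference in name and the knockdown cannot be told apart.

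Proteins of the Ikaros family bind DNA through zinc fingers near one end and pair with each other through zinc fingers near the other end. Ikaros (Ikzf1) is required for lymphocyte development and acts with the Mi-2/NuRD and Sin3 histone deacetylase complexes, and it can also work with SWI/SNF. Helios (Ikzf2), Aiolos (Ikzf3) and Eos (Ikzf4) are best known in T cells, B cells and regulatory T cells, and Helios is also expressed by blood stem and leukaemia cells. Pegasus (Ikzf5) is more divergent and more broadly expressed.

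Several family members recognise a core of GGGAA, so the letters before the genes' own start sites are shown for the members with a RefSeq promoter entry (assembly GRCm38.p6). Each window holds the 250 bases before a start, 5′ to 3′ on the gene's strand, in lower case with GGGAA or its reverse complement TTCCC in capitals.
Ikzf1 upstream start (chr11:11685675-11685924, plus strand): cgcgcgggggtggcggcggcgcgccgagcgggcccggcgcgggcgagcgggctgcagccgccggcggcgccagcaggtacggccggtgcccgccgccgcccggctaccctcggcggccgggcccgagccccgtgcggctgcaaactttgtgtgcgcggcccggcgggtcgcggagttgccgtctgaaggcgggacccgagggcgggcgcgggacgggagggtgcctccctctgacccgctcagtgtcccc
Ikzf1 downstream start (chr11:11689927-11690176, plus strand): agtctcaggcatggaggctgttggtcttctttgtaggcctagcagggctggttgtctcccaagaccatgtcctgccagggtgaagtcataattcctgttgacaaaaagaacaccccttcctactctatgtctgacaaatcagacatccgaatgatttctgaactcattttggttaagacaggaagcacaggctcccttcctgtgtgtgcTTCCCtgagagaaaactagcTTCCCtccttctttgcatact
Ikzf5 (chr7:131410479-131410728, minus strand): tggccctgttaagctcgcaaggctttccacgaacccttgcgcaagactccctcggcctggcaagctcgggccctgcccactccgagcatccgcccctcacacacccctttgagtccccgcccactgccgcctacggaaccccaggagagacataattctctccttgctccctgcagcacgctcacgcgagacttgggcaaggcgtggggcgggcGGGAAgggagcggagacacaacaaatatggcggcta

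The windows of Ikzf1 differed in composition. The upstream one held 82% G and C with 0 matches, and the downstream one 47.6% with 2 matches. The Ikzf5 window held 64% G and C and 1 match, and none of the 3 held the longer form TGGGAA, which contains GGGAA. Over all 32851 windows of the same length the median G and C content was 52.4%. Of these windows 56.2% held GGGAA on either strand, and 21.6% held TGGGAA. A match describes these letters only, and no binding was measured here.

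The deposited values are log2 expression, so a difference of 1 is a doubling. Array medians lay between 7.39 and 7.49. Smarca4, which encodes Brg1, averaged 10.77 ± 0.08 (SD, n = 6) under the Brg1 hairpins and 11.79 ± 0.01 (SD, n = 3) under Rluc. Its remaining level was 48.2% to 50.3% of that under Rluc with every hairpin, and the hairpins were not shown to differ (limma F test, adjusted p = 0.802). Differences and their standard errors (SE) come from a limma fit to all genes and all 9 arrays, with genes called where the Benjamini-Hochberg adjusted p was under 0.05. The labels do not say whether the arrays of a group were separate cultures. The p-values therefore cover only the spread among these samples, possibly a technical one. It is the spread within groups, so the SE and p of the hairpin mean leave out the spread among the 3 hairpins. A fit with hairpin as a random block, which takes that spread in, called 2557 genes on the mean, against 5635. In such bulk RNA, fewer cells that express a gene and less of its RNA per cell cannot be told apart.

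Under Brg1 knockdown Ikzf2 and Ikzf1 were higher, Ikzf3 was lower and Ikzf4 stayed close to its level under Rluc. Ikzf5 differed with 1 hairpin by its brighter probe set only, and the average of both its sets was not called there. Of the 4 members tested on the mean of the 3 hairpins against Rluc, 1 rose (Ikzf1), 1 fell (Ikzf3) and 2 were not called (Ikzf4 and Ikzf5). Over all genes 28.3% were called in this comparison, 13.3% as higher and 15.0% as lower. All 6 knockdown arrays lay above all 3 Rluc arrays for 2 members and below them for 1, and the groups overlapped for the other 2 of 5. Of the 2 above, Ikzf2 was fixed by its choice, so nothing is read from its place in this count. Across all genes 10.7% lay wholly above, 12.1% wholly below, and so 22.8% had groups that did not overlap.

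**Figure D1:**
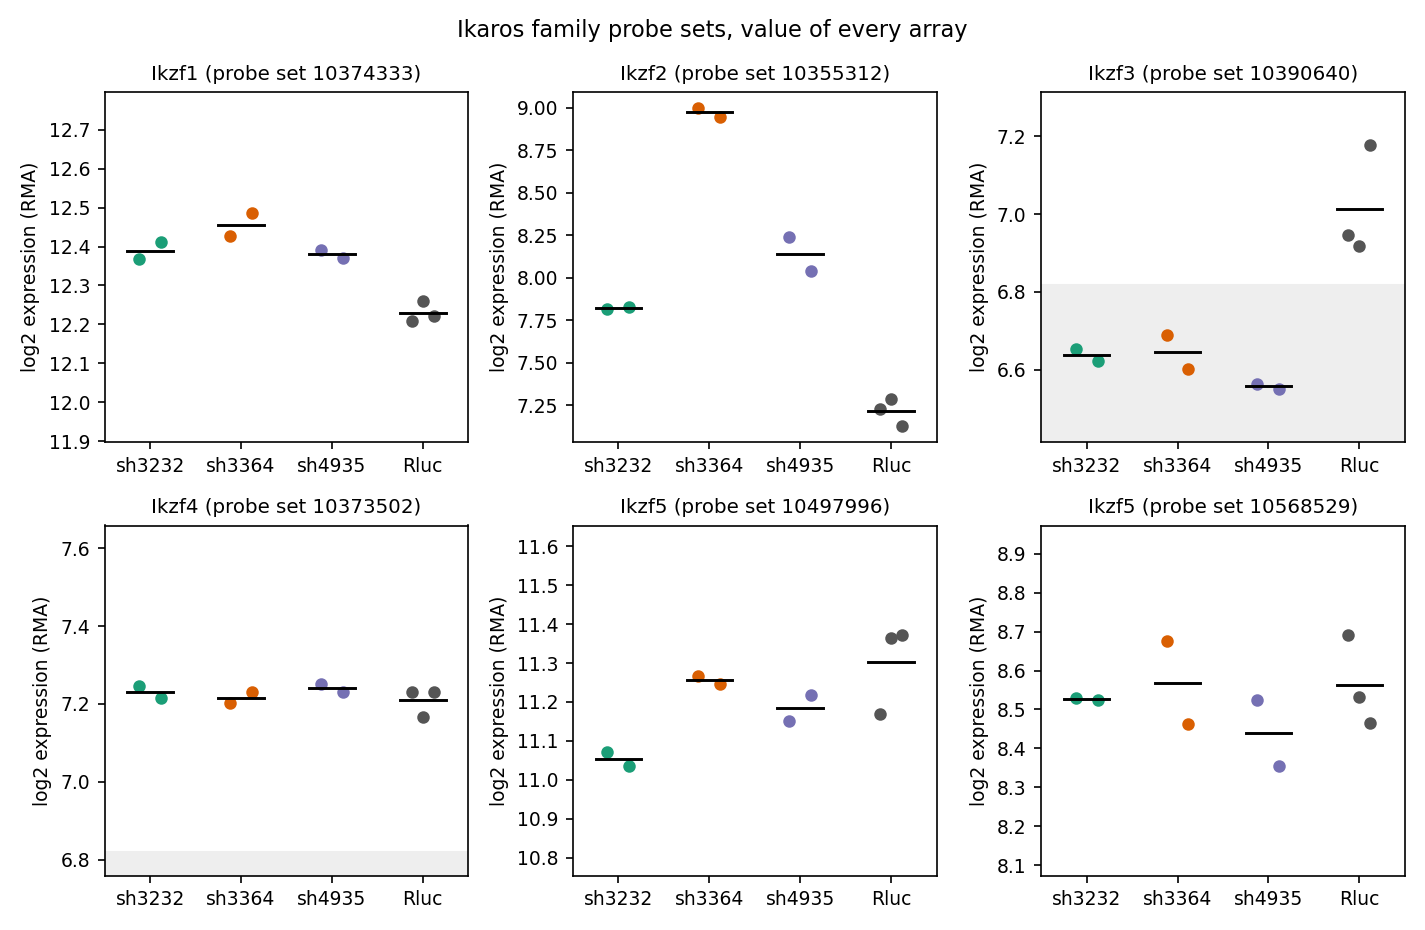
Log2 expression on each array (vertical axis) for the probe sets of the 5 family members, with the groups Brg1sh_3232, Brg1sh_3364, Brg1sh_4935 and Rluc from left to right; points are arrays, black lines are group means, and the grey band marks levels below 6.82, the 95th percentile of olfactory receptor genes. The 6 knockdown arrays lie above the Rluc arrays for Ikzf1 and Ikzf2 and below them for Ikzf3, and levels of different probe sets cannot be set against each other.

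Ikzf2 (probe set 10355312, Entrez 22779), which encodes Helios, was at 7.81 and 7.83 with Brg1sh_3232, 9.0 and 8.95 with Brg1sh_3364, and 8.24 and 8.04 with Brg1sh_4935, against 7.23, 7.29 and 7.13 with Rluc. Each hairpin's pair of arrays stood apart from the other pairs, and all 6 stood above the 3 Rluc arrays. The mean of the hairpins exceeded Rluc by 1.10 (SE 0.05), a 2.14-fold difference, which placed Ikzf2 at rank 108 of 19937 genes ordered by their rise. By comparison 0.717% of all genes were at least 2-fold higher in this contrast. The difference from Rluc was 0.61 with Brg1sh_3232, 1.76 with Brg1sh_3364 and 0.92 with Brg1sh_4935 (SE 0.07 each), or 1.52-fold, 3.38-fold and 1.90-fold. These values chose the gene and are given as a description. Without Brg1sh_3364 the mean difference was 0.77, against 1.10 with all 3 hairpins.

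The spread of Ikzf2 among the 3 hairpins was also tested. It is made of the same hairpin values that chose the gene, so its p-values are not independent of that choice. The spread was called by the limma F test (adjusted p = 0.00026), at rank 26 of all genes by p, where 10.5% of genes were called. Brg1sh_3364 exceeded Brg1sh_3232 by 1.15 (SE 0.08, limma adjusted p = 0.000139), in a comparison where 9.66% of genes were called. Brg1sh_4935 lay 0.83 below Brg1sh_3364 (log2 difference -0.83, SE 0.08, limma adjusted p = 0.000592), where 7.61% were called. Brg1sh_4935 exceeded Brg1sh_3232 by 0.32 (SE 0.08, 95% interval 0.15 to 0.49), with both arrays of the first above both of the second. That pair did not pass after adjustment over all genes (limma adjusted p = 0.0941), where 1.02% of genes were called. From high to low the order was thus Brg1sh_3364, Brg1sh_4935, Brg1sh_3232 and Rluc, with the middle neighbours not separated by the adjusted test. Smarca4 itself differed little among the same pairs, by 0.01 for Brg1sh_3364 minus Brg1sh_3232, -0.05 for Brg1sh_4935 minus Brg1sh_3232 and -0.06 for Brg1sh_4935 minus Brg1sh_3364.

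Among the other members no spread among hairpins was called. The limma F test gave an adjusted p of 0.513 for Ikzf1, 0.716 for Ikzf3, 0.94 for Ikzf4 and 0.203 for Ikzf5. In all, 15 pairs of hairpins were compared, 3 per member, and the 2 that passed were those of Ikzf2 that involve Brg1sh_3364. For Ikzf1 the difference of Brg1sh_3364 minus Brg1sh_3232 was 0.07 (95% interval -0.04 to 0.18), so a gap like that of Ikzf2 lay outside its interval. For Ikzf3 the same difference was 0.01 (95% interval -0.18 to 0.20).

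**Figure D2:**
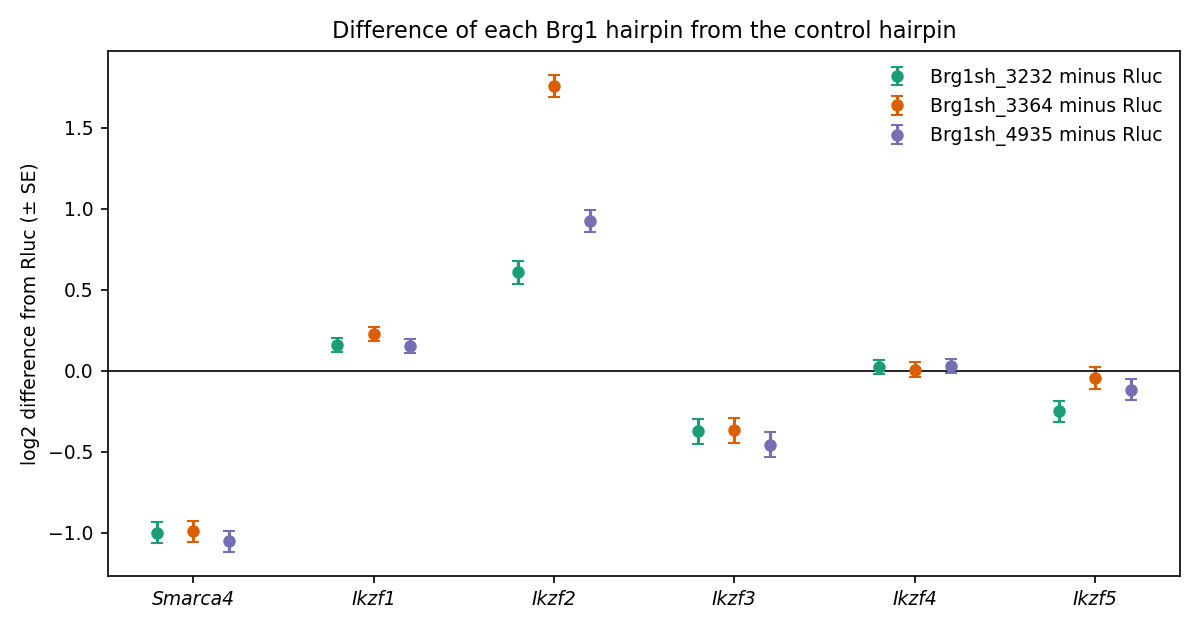
Log2 difference of each Brg1 hairpin from Rluc (vertical axis, with SE bars) for Smarca4 and the 5 family members, from 2 arrays per hairpin and 3 Rluc arrays. The 3 hairpins lie together near -1 for Smarca4 and apart for Ikzf2, at 0.61, 1.76 and 0.92.

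Ikzf1 (probe set 10374333, Entrez 22778), which encodes Ikaros, was at 12.37 and 12.41 with Brg1sh_3232, 12.43 and 12.49 with Brg1sh_3364, and 12.39 and 12.37 with Brg1sh_4935, against 12.21, 12.26 and 12.22 with Rluc. The 6 knockdown arrays lay in a narrow range just above the 3 Rluc arrays. The mean of the hairpins was 0.18 higher (SE 0.03, limma adjusted p = 0.00369), a 1.13-fold difference, and 25.3% of all genes had a larger change in either direction.

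By hairpin, Ikzf1 was higher by 0.16 with Brg1sh_3232 (SE 0.04, limma adjusted p = 0.0323), by 0.23 with Brg1sh_3364 (SE 0.04, limma adjusted p = 0.00491) and by 0.15 with Brg1sh_4935 (SE 0.04, limma adjusted p = 0.0377). In these 3 comparisons 20.8%, 25.7% and 22.1% of all genes were called. Those that rose were 9.59%, 13.6% and 9.79%, and those that fell were 11.3%, 12.2% and 12.3%. The calls with Brg1sh_3232 and Brg1sh_4935 were narrow. The call with Brg1sh_3232 was lost without its own replicate 1 (limma adjusted p = 0.0607) or 2 (0.142), without either Brg1sh_4935 array (0.0505 each), and without Rluc replicate 1 (0.0696) or 3 (0.0689). The call with Brg1sh_4935 was lost without its own replicate 1 (limma adjusted p = 0.173) or 2 (0.121), and without Rluc replicate 1 (0.0844), 2 (0.0505) or 3 (0.077). The calls on the mean of the hairpins and with Brg1sh_3364 held without each array in turn.

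Ikzf3 (probe set 10390640, Entrez 22780), which encodes Aiolos, was at 6.65 and 6.62 with Brg1sh_3232, 6.69 and 6.60 with Brg1sh_3364, and 6.56 and 6.55 with Brg1sh_4935, against 6.95, 6.92 and 7.18 with Rluc. All 6 knockdown arrays lay below all 3 Rluc arrays, and the highest Rluc array was replicate 3. Ikzf3 fell by 0.40 on the mean of the hairpins (SE 0.06, limma adjusted p = 0.00088). The differences were -0.38 with Brg1sh_3232 (limma adjusted p = 0.00786), -0.37 with Brg1sh_3364 (0.00663) and -0.46 with Brg1sh_4935 (0.00249), each with an SE of 0.08. Without Brg1sh_3232 replicate 2 its difference for that hairpin was -0.36 and no longer called (limma adjusted p = 0.0644), and without Brg1sh_3364 replicate 2 that hairpin's was -0.32 (limma adjusted p = 0.0673).

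The level of Ikzf3 was low on these arrays. No detection calls were used here, so the 1027 olfactory receptor genes measured, which blood cells hardly express, served as a guide to background. Their 95th percentile was 6.82 over all arrays. The hairpin means of Ikzf3 lay below it, above 92.1% to 93.6% of olfactory receptor genes, while its Rluc mean of 7.01 lay above it, over 97.3% of them. Ikzf4 lay above 97.8% to 98.0% of them in every group. Ikzf2 lay above 99.3% to 100% of them with the hairpins and 98.0% with Rluc. Ikzf1 and Ikzf5 lay above all of them in every group.

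Ikzf4 (probe set 10373502, Entrez 22781), which encodes Eos, was at 7.24 and 7.22 with Brg1sh_3232, 7.20 and 7.23 with Brg1sh_3364, and 7.25 and 7.23 with Brg1sh_4935, against 7.23, 7.17 and 7.23 with Rluc. The groups overlapped, and the difference on the mean of the hairpins was 0.02 (SE 0.03, 95% interval -0.06 to 0.10, limma adjusted p = 0.758). By hairpin it was 0.02 with Brg1sh_3232, 0.01 with Brg1sh_3364 and 0.03 with Brg1sh_4935, none of them called. On 4 of the 9 arrays the deposited value was the same to every digit, as it was on at least 4 arrays for 13.1% of all probe sets.

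Ikzf5 (Entrez 67143), which encodes Pegasus, had a brighter probe set, 10497996, and a dimmer one, 10568529. The brighter set was at 11.07 and 11.03 with Brg1sh_3232, 11.27 and 11.25 with Brg1sh_3364, and 11.15 and 11.22 with Brg1sh_4935, against 11.17, 11.37 and 11.37 with Rluc. Rluc replicate 1 fell among the knockdown arrays, and 3 of the 6 knockdown arrays lay below all Rluc arrays. The mean difference of -0.14 was not called (SE 0.05, 95% interval -0.25 to -0.02, limma adjusted p = 0.0781). Without Rluc replicate 1 it was -0.20 and called (limma adjusted p = 0.00606).

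With Brg1sh_3232 the brighter Ikzf5 set fell by 0.25 (SE 0.07, limma adjusted p = 0.0259). With Brg1sh_3364 it differed by -0.05 and with Brg1sh_4935 by -0.12, neither of them called (limma adjusted p = 0.696 and 0.285). The call with Brg1sh_3232 was lost without its own replicate 1 (limma adjusted p = 0.0842) or 2 (0.135) and without Rluc replicate 2 (0.076) or 3 (0.072). Without Rluc replicate 1 the difference with Brg1sh_4935 was called (-0.18, limma adjusted p = 0.0291), and so was that between Brg1sh_3364 and Brg1sh_3232 (0.20, limma adjusted p = 0.0343). No difference of Ikzf5 among hairpins was called with all 9 arrays.

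The dimmer Ikzf5 set was at 8.53 and 8.52 with Brg1sh_3232, 8.67 and 8.46 with Brg1sh_3364, and 8.52 and 8.36 with Brg1sh_4935, against 8.69, 8.53 and 8.47 with Rluc. The groups overlapped, with a mean difference of -0.05 (SE 0.07, 95% interval -0.22 to 0.11, limma adjusted p = 0.725 in a fit of every deposited probe set). With Brg1sh_3232 this set differed by -0.04, against -0.25 for the brighter one, and the average of both sets was not called there (-0.14, limma adjusted p = 0.0696).

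The probe set numbers run along the chromosomes, and by this order the brighter Ikzf5 set stood apart from the gene it is annotated to. Of the 16 probe sets with 1 gene nearest to it by number, 15 belong to genes on chromosome 3 and 0 to genes on chromosome 7, where RefSeq places Ikzf5. For the dimmer set 15 of 16 belong to chromosome 7. The sets of Ikzf1, Ikzf2, Ikzf3 and Ikzf4 had 14 to 16 of 16 on the gene's own chromosome. Which sequence the brighter set reads was not tested.

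By an exact two-sided permutation test of each gene alone, over the 84 ways of choosing 3 of 9 arrays as controls, p was 0.0119 for Ikzf1 and for Ikzf3, the smallest this design allows. It was 0.333 for Ikzf4 and 0.0952 for Ikzf5. The test treats the 9 arrays as exchangeable, although the knockdown arrays come from 3 hairpins with 2 arrays each. For Ikzf1 and Ikzf3 it restates that the groups did not overlap and adds no separate evidence.

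The genes whose pattern over the 9 arrays was nearest to that of Ikzf2 were found by the root mean square difference between profiles set to 0 at their Rluc mean, over 17140 candidates. Bank1, an adaptor of B cell receptor signalling, was nearest, at 0.148 on the log2 scale. It differed from Rluc by 0.60 with Brg1sh_3232, 2.03 with Brg1sh_3364 and 0.98 with Brg1sh_4935. Pgap1, which remodels glycosylphosphatidylinositol anchors, followed at 0.176, with differences of 0.66, 1.48 and 0.90 in the same order of hairpins. Its Rluc mean of 5.84 lay below 6.82, the 95th percentile of olfactory receptor genes. Padi4, which converts arginine to citrulline in proteins including histones, stood at 0.181, with 0.63, 1.79 and 0.59. In these genes Brg1sh_3364 was the highest hairpin too, which is what the search selected for.

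Sh3bp5, which binds the kinase Btk, stood at 0.204 from Ikzf2, with 0.70, 1.37 and 0.79, and Scaper, which binds cyclin A, at 0.206, with 0.66, 1.38 and 0.76. Pearson's r with Ikzf2 over the 9 arrays was 0.967 to 0.993 for the 5 genes. The 9 points share their 4 groups and their Rluc arrays, so these values are a description.

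**Figure D3:**
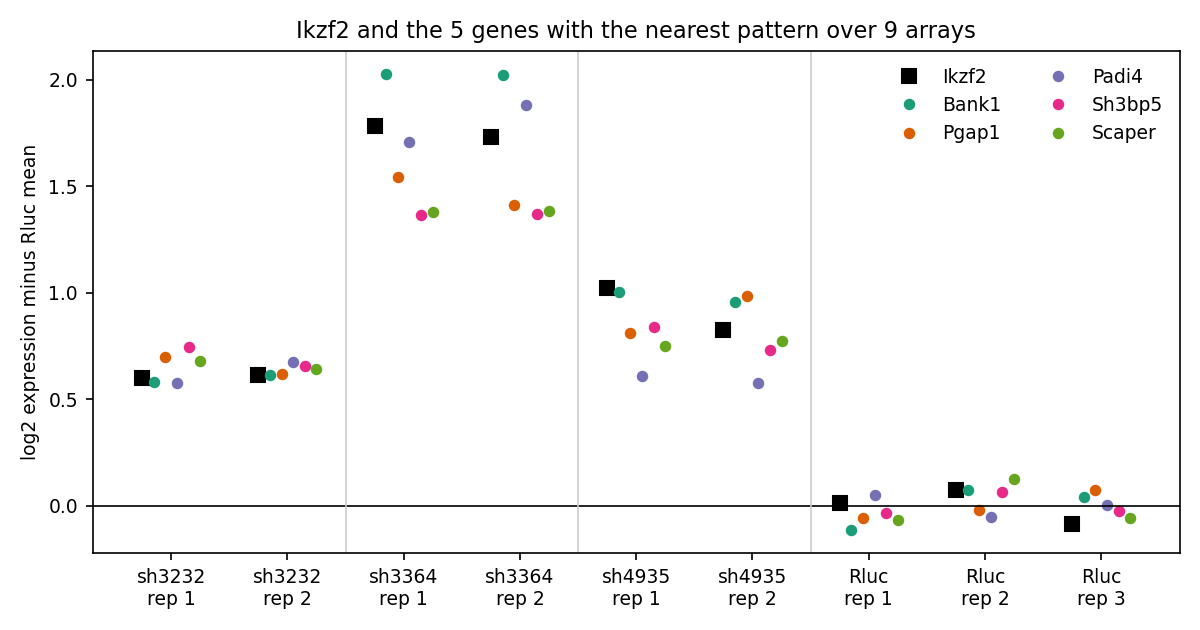
Log2 expression minus the Rluc mean (vertical axis) on each of the 9 arrays for Ikzf2 (squares) and the 5 genes nearest to it, with Brg1 hairpin arrays left of Rluc arrays. All 6 genes are highest in the Brg1sh_3364 arrays, between 1.37 and 2.03 for the 5 nearest genes' hairpin means and 1.76 for Ikzf2.

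The nearest measured genes on either side of each member in the RefSeq gene order were then examined. For Ikzf2 these were Erbb4, a receptor tyrosine kinase, with a difference of 0.04 (limma adjusted p = 0.63), and Spag16, a gene of the sperm tail, with -0.05 (limma adjusted p = 0.362). Both lay low, above 72.2% and 61.9% of olfactory receptor genes. The genes flanking Ikzf2 thus showed no called change beside its difference of 1.10.

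For Ikzf1, the clone-named 4930512M02Rik differed by 0.01 (limma adjusted p = 0.951), while Fignl1, an ATPase of DNA repair, fell by 0.20 (SE 0.04, limma adjusted p = 0.00646). Fignl1 and Ikzf1 thus moved in opposite directions. For Ikzf3, Mien1 rose by 0.15 (SE 0.03, limma adjusted p = 0.0104) and Zpbp2 differed by -0.11 (limma adjusted p = 0.274), so neither neighbour was called as lower. For Ikzf4, Erbb3, another receptor tyrosine kinase, differed by -0.01 (limma adjusted p = 0.866) and Suox, the sulphite oxidase, by 0.03 (limma adjusted p = 0.86).

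Around Ikzf5 the 3 genes examined all fell, in a contrast where 15.0% of all genes were called as lower. The difference was -0.33 for 2310057M21Rik (SE 0.04, limma adjusted p = 0.000377) and -0.32 for Acadsb, a dehydrogenase of branched-chain acyl-CoA (SE 0.05, limma adjusted p = 0.00195). Pstk, the kinase of selenocysteine tRNA synthesis, overlaps Ikzf5 and was looked at after its values were seen. It fell by 0.32 (SE 0.05, limma adjusted p = 0.0019). The Ikzf5 sets themselves differed by -0.14 and -0.05.

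**Figure D4:**
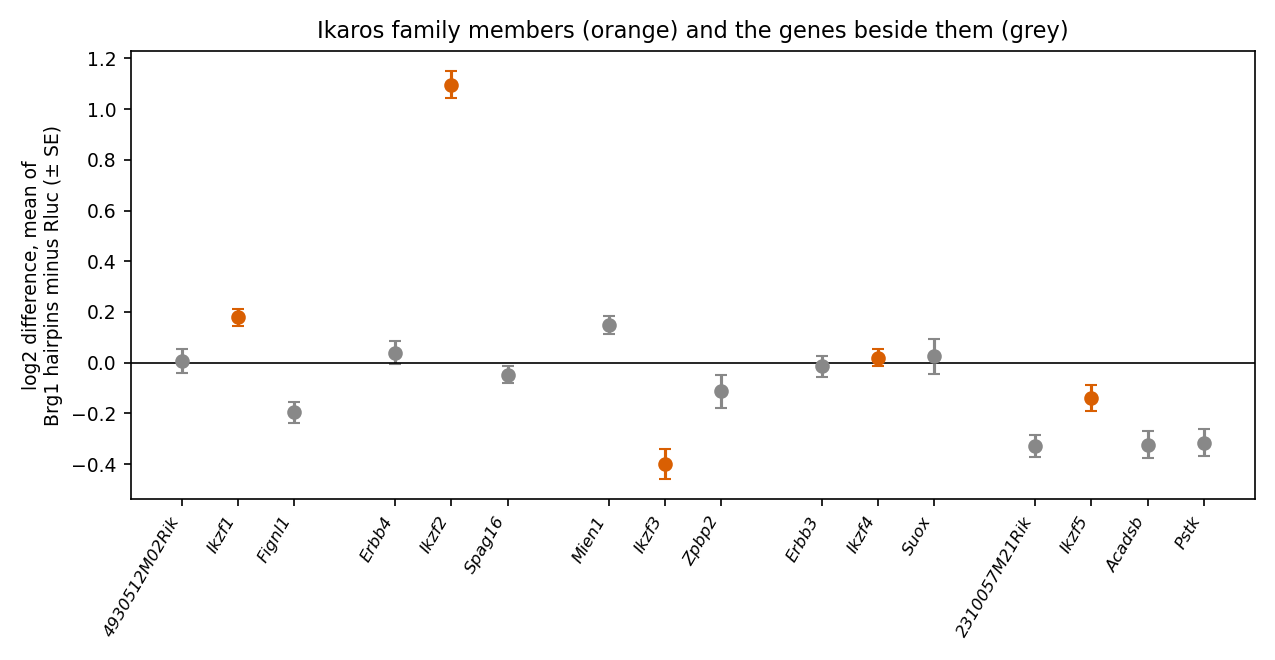
Log2 difference of the mean of the Brg1 hairpins from Rluc (with SE bars) for each family member (orange) and its nearest measured neighbours (grey). Ikzf2 stands at 1.10 between Erbb4 at 0.04 and Spag16 at -0.05, and the neighbours of Ikzf5 lie near -0.3.

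Of 17 genes for the corepressor complexes that Ikaros proteins recruit, 3 rose, 4 fell and 10 were not called on the mean of the hairpins, which is 41.2% called against 28.3% of all genes. The median difference was -0.04, against -0.00 over all genes. All 17 lay above every olfactory receptor gene, while the 28.3% takes in dim genes too. With genes below the median level left out, 5547 genes were still called, against 5635 with them. The share for genes as bright as these 17 was not computed, so nothing is read from the 41.2%. Chd3, a Mi-2 ATPase of NuRD, rose by 0.39 (SE 0.05, limma adjusted p = 0.00034), and Mta3, another NuRD subunit, by 0.23 (SE 0.04, limma adjusted p = 0.00238). Hdac2, the histone deacetylase shared by NuRD and Sin3, fell by 0.40 (SE 0.06, limma adjusted p = 0.000715). Mbd3, a NuRD scaffold subunit, fell by 0.25 (SE 0.05, limma adjusted p = 0.00842). Subunits of the same complex thus moved in both directions. The number that fell was 2 without Rluc replicate 3 and 7 after median centring of the arrays, while with hairpin as a random block 1 rose and 1 fell.

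By hairpin, 1 corepressor gene rose and 2 fell with Brg1sh_3232, 4 rose and 2 fell with Brg1sh_3364, and 2 rose and 3 fell with Brg1sh_4935. Those are 17.6%, 35.3% and 29.4% of the 17, against 20.8%, 25.7% and 22.1% of all genes. Chd4, the other main Mi-2 ATPase, differed by -0.04 (limma adjusted p = 0.501) and was not called with any hairpin.

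Of 22 lymphoid genes that Ikaros proteins are known to regulate, 4 rose, 2 fell and 16 were not called (27.3% called, near the 28.3% of all genes, with a median difference of 0.02). The 16 not called lay above 27.7% to 99.1% of olfactory receptor genes, so this share counts many genes that were dim here. Among the called genes Foxo1, Myc, Cd79b and Cdkn1b lay above 99.9% to 100% of them, Il7r above 97.2% and Blnk above 93.9%. With hairpin as a random block, 1 rose and 1 fell. Foxo1, a transcription factor of early B cells, rose by 1.38 (SE 0.05, limma adjusted p = 5.46e-07), with similar sizes of 1.38, 1.48 and 1.29 for Brg1sh_3232, Brg1sh_3364 and Brg1sh_4935. Il7r, the interleukin 7 receptor chain, rose by 1.18 (SE 0.14, limma adjusted p = 0.000232), by 0.69, 0.72 and 2.11 for the same hairpins. Its Rluc mean of 6.27 lay below 6.82, the 95th percentile of olfactory receptor genes. Its order was not that of Ikzf2, since Brg1sh_4935 stood highest. Myc fell by 0.60 (SE 0.05, limma adjusted p = 3.49e-05) and Cd79b, a B cell receptor chain, by 0.77 (SE 0.07, limma adjusted p = 6.52e-05), and both were lowest with Brg1sh_3364, at -1.01 and -1.17.

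Several genes of the antigen receptor programme were among the 16 that were not called. Rag1 differed by 0.00 (limma adjusted p = 0.981), Vpreb1 by 0.01 (limma adjusted p = 0.946) and Dntt by 0.10 (limma adjusted p = 0.124). These were chosen for mention after their values were seen, and they lay above 68.0% to 88.6% of olfactory receptor genes. By hairpin, 2 of the 22 rose and 2 fell with Brg1sh_3232, 3 and 2 with Brg1sh_3364, and 4 and 2 with Brg1sh_4935. These are 18.2%, 22.7% and 27.3% of the list, near the 20.8%, 25.7% and 22.1% of all genes.

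Of 10 self-renewal and C/EBP genes of the leukaemia, 4 rose, 4 fell and 2 were not called (80% called against 28.3% of all genes, median difference -0.03). All 10 lay above every olfactory receptor gene, while the 28.3% takes in dim genes, so the shares are not like for like. With hairpin as a random block, 2 rose and 2 fell. Cebpa, a master regulator of granulocytes, fell by 0.61 (SE 0.04, limma adjusted p = 1.58e-05), and Hoxa9, an MLL-AF9 target, by 0.40 (SE 0.05, limma adjusted p = 0.000229). Itgam, the integrin chain Cd11b of maturing myeloid cells, rose by 0.40 (SE 0.03, limma adjusted p = 3.43e-05), and Cebpd by 0.42 (SE 0.06, limma adjusted p = 0.000697). By hairpin, 6 of the 10 were called with Brg1sh_3232, 7 with Brg1sh_3364 and 6 with Brg1sh_4935, against 20.8%, 25.7% and 22.1% of all genes.

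Of 16 zinc finger regulators of blood cells outside the family, 4 rose, 1 fell and 11 were not called (31.2% called, near the 28.3% of all genes, with a median difference of 0.03). With hairpin as a random block 1 rose and 0 fell, and with the 3 hairpin means as replicates 0 rose and 0 fell. Gfi1b, a transcriptional repressor that works within the erythroid and platelet lineages, rose by 1.50 (SE 0.11, limma adjusted p = 2e-05). By hairpin it rose by 1.61, 0.62 and 2.27 for Brg1sh_3232, Brg1sh_3364 and Brg1sh_4935. Gata2, a stem and progenitor factor, rose by 0.40 (SE 0.07, limma adjusted p = 0.00254), by 0.50, 0.02 and 0.69, of which the value for Brg1sh_3364 was not called. For both, Brg1sh_3364 was the lowest hairpin, whereas it was the highest for Ikzf2.

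Gfi1, the myeloid relative of Gfi1b, fell by 0.32 (SE 0.06, limma adjusted p = 0.00368). Zbtb7b, a factor of helper T cells, rose by 0.22 (SE 0.06, limma adjusted p = 0.0169), and its call was lost without Rluc replicate 1 (limma adjusted p = 0.0503) or 3 (0.0667). The number of these zinc finger genes that rose was 2 without Rluc replicate 1, and likewise 2 without Rluc replicate 3.

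With hairpin as a random block, the calls on the mean of the hairpins were lost for Mta3 (limma adjusted p = 0.0617), Mbd3 (0.0685), Myc (0.0713) and Il7r (0.115). They were also lost for Gata2 (limma adjusted p = 0.243), Gfi1 (0.21), Zbtb7b (0.165), Fignl1 (0.0934) and Mien1 (0.119). Ikzf1 and Ikzf3 remained called under it. Without Brg1sh_4935 the calls of Gata2 (limma adjusted p = 0.0633) and Gfi1 (0.112) were lost, without Brg1sh_3364 that of Zbtb7b (0.136), and without Brg1sh_3232 that of Mien1 (0.0617).

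**Figure D5:**
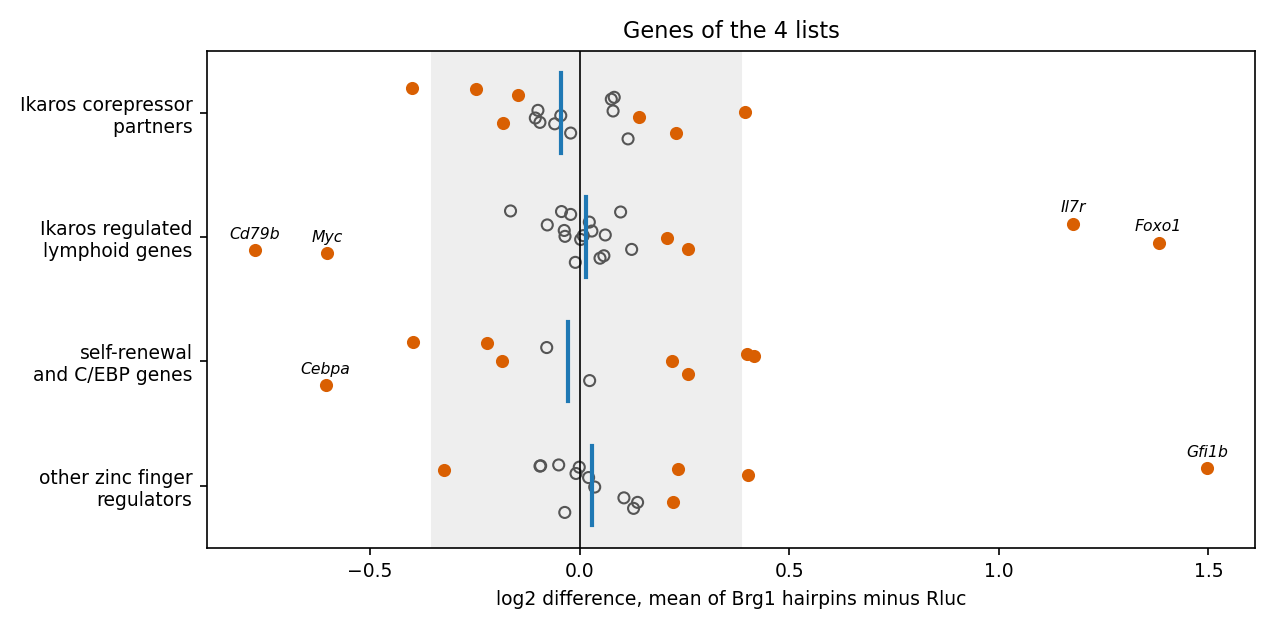
Log2 difference of the mean of the Brg1 hairpins from Rluc for every measured gene of the 4 lists; filled orange points were called and open points were not, blue lines are list medians, and the grey band spans the 5th to 95th percentile of all genes (-0.35 to 0.38). The list medians lie between -0.04 and 0.03, and Gfi1b at 1.50, Foxo1 at 1.38 and Il7r at 1.18 stand highest.

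Because the family is best known in lymphocytes, markers of other blood cells were set beside these values. The 8 markers of myeloid leukaemia cells all lay above the 95th percentile of olfactory receptor genes, and their mean level was 11.97 to 12.09 on Brg1 hairpin arrays and 12.08 to 12.14 on Rluc arrays. Behind these means 4 of the 8 rose, 3 fell and 1 was not called. Over all genes, dim ones included, 28.3% were called on the mean of the hairpins, 13.3% as higher and 15.0% as lower. Mpo, the myeloperoxidase of granules, fell by 0.87 (limma adjusted p = 3.11e-06) and Ptprc, the pan-leukocyte antigen Cd45, rose by 0.31 (limma adjusted p = 0.000533). Their part in the Ikaros family values was not tested. Of 5 measured B cell markers 1 lay above it and none was called, with mean levels of 6.11 to 6.19 on Brg1 hairpin arrays and 6.10 to 6.14 on Rluc arrays. Of 7 measured T cell markers 4 lay above it and 1 fell, Cd28 by 0.21 (limma adjusted p = 0.00643), with mean levels of 7.11 to 7.28 on Brg1 hairpin arrays and 7.22 to 7.25 on Rluc arrays.

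Of the 4 regulatory T cell markers 2 lay above the 95th percentile of olfactory receptor genes. Of the 4, 1 rose, Tnfrsf18 by 0.64 (limma adjusted p = 6.31e-05). Their mean levels were 6.58 to 7.09 on Brg1 hairpin arrays and 6.53 to 6.65 on Rluc arrays. Foxp3, the factor that defines these cells, was at 7.33 under the Brg1 hairpins and 7.28 under Rluc and was not called (limma adjusted p = 0.587). Of the 5 NK cell markers none lay above the 95th percentile, and Klrk1 rose by 0.28 (limma adjusted p = 0.0012). Their mean levels were 5.73 to 5.92 on Brg1 hairpin arrays and 5.69 to 5.72 on Rluc arrays. Among the 4 plasmacytoid dendritic cell markers 2, Tcf4 and Bst2, lay above the 95th percentile, and none of the 4 was called. Mean levels of this list were 8.25 to 8.59 on Brg1 hairpin arrays and 8.40 to 8.46 on Rluc arrays. These marker counts stand beside the 28.3% of all genes called, 13.3% as higher. The part of Tnfrsf18, Klrk1 or Cd28 expressing cells in the Ikaros family values was not tested.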

How the data were processed

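Each deposited value is the log2 expression of a probe set on an Affymetrix whole-transcript array, which per the submitters' processing notes the authors computed by RMA. This method corrects background, equalises array distributions and summarises probes, so fold changes of dim sets are compressed. Scanner files were not used here, and the sources used here name neither the array's genome build nor the RMA version. Depth does not apply, and precision is limited by the number of arrays.

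Of 34760 probe sets, 21640 had 1 gene symbol, 1321 several and 11799 none. A gene was represented by its brightest probe set, which left 19937 genes with no filter. The fit of group means to the 9 arrays used lmFit and eBayes of limma 3.58.1 in R 4.3.3 (5 residual and 3.85 prior degrees of freedom). The 3 hairpins share the Rluc arrays. No array pair was a duplicate: at most 1906 values were equal. The fit was also run on simulated data with the same shift in every knockdown array, so that run does not cover differences among hairpins.

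The members and the gene lists were chosen with earlier results of these data known. Genes named with values were the 5 members, Smarca4, up to 4 genes per list with the smallest p, the 5 nearest profiles to Ikzf2 and the nearest measured neighbours. The profile search left out antigen receptor segments, vomeronasal and olfactory receptors, small RNAs, clone names and predicted models. Promoter letters and the gene order come from RefSeq (GRCm38.p6). Alternatives varied scaling, filters, probe sets, priors, weights, blocks, thresholds and the arrays or hairpins used.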

Additional observations from a re-analysis of the deposited data

Results flagged for a closer look

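Effects that differed between hairpins under the same contrast with Rluc were looked for among 33 genes given with values, the members, Smarca4, the list genes and the neighbours, and 8 passed a limma F test among the 3 hairpins. Each of these 8 stands out because the 3 hairpins against the same target gave different sizes of change. Ikzf2 had a limma F test adjusted p of 0.00026, which is not independent of its choice, and was highest with Brg1sh_3364. Myc had 0.0012, Cd79b 0.00867 and Cebpa 0.00441 by the same limma F test, and all 3 were lowest with Brg1sh_3364. Gfi1b had 0.00131, Il7r 0.00342 and Gata2 0.00835, and these were highest with Brg1sh_4935. Gfi1 had 0.0183 and was lowest with Brg1sh_4935. Over all genes 10.5% passed this test. The 5 genes nearest to Ikzf2 were left out, since their likeness to it already fixes such a difference. Groups of 2 and 3 arrays are too small for a search for single outlying arrays.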

How the results depend on the processing

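The calls of Ikzf1 and Ikzf3 on the mean of the hairpins held under every alternative that gave a value. Their highest limma adjusted p was 0.0343 for Ikzf1 and 0.0186 for Ikzf3. The limma F test of Ikzf2 also remained called (highest adjusted p = 0.00713). It uses the values that chose the gene, so nothing is read from its holding. No called value changed sign. Ikzf4 was not called under any alternative and took either sign, from -0.02 to 0.03. With dim genes left out, Ikzf3 and Ikzf4 gave no value.

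Ikzf1 with Brg1sh_3232 lost its call under further quantile normalization (0.16), median centring (0.13), every deposited row (0.16), array weights (0.15), its own and Rluc arrays alone (0.16) and a threshold of 0.01 (0.16). With Brg1sh_4935 it did so under centring (0.091), every row (0.15) and the threshold of 0.01 (0.15). Ikzf5 with Brg1sh_3232 lost its call as the mean of all probe sets (-0.14), and, at -0.25 each, with every row, its own and Rluc arrays alone and the threshold of 0.01. Ikzf3 with Brg1sh_3232 lost its call with its own and Rluc arrays alone (-0.38, limma adjusted p = 0.0556). Ikzf5 on the mean of the hairpins was called under centring (-0.18, limma adjusted p = 0.0225) and without dim genes (-0.14, limma adjusted p = 0.0435). The mean difference of Ikzf2 was 1.34 without Brg1sh_3232, 0.77 without Brg1sh_3364 and 1.18 without Brg1sh_4935. Why these moved was not tested.

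Leaving out 1 array at a time gave 0.14 to 0.18 for Ikzf1 with Brg1sh_3232, 0.14 to 0.17 with Brg1sh_4935, and 0.83 to 1.02 for Ikzf2 with Brg1sh_4935. It gave -0.42 to -0.29 for Ikzf3 with Brg1sh_3232 and -0.42 to -0.29 with Brg1sh_3364. For Ikzf5 it gave -0.20 to -0.10 on the mean, -0.32 to -0.21 with Brg1sh_3232, -0.184 to -0.0826 with Brg1sh_4935 and 0.19 to 0.22 for Brg1sh_3364 minus Brg1sh_3232. The corepressor genes that fell numbered 2 to 4, and the zinc finger genes that rose 2 to 6.

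Replicate numbers are shared between groups, but deviations of same-numbered arrays correlated by only -0.07 to 0.25 over 12 pairs (9 distinct values, since the deviations of 2 arrays mirror each other), so the numbers were not taken as pairing. Number 3 occurs only in Rluc, so the replicate block also takes up that array, and its log2 differences equal those without Rluc replicate 3, where 4705 genes were called. With a replicate block, 4712 genes were called on the mean against 5635, the values were 0.16 for Ikzf1 with Brg1sh_3232, 0.15 with Brg1sh_4935 and -0.21 for Ikzf5 with Brg1sh_3232, none called, and 2 corepressor genes fell and 2 zinc finger genes rose. Among the other named genes only Zbtb7b and Mien1 lost their calls under the block.

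Treating the 3 hairpin means as replicates left 2816 called genes, with 1 corepressor gene higher and 2 lower and 1 lymphoid gene each way. In the self-renewal and C/EBP list 2 genes were called each way, and in the zinc finger list 0. Hairpin as a random block left 2557 called genes, with 1 corepressor and 1 lymphoid gene each way. Under it 2 genes of the self-renewal and C/EBP list were called each way, and 1 zinc finger gene was higher and 0 lower. Among list counts, 7 corepressor genes fell under centring and 2 at the threshold of 0.01, 2 lymphoid genes rose without dim genes, and 2 zinc finger genes fell under quantile normalization and under centring. At the threshold of 0.01, 2 zinc finger genes rose. Without Brg1sh_4935, 2 genes of the self-renewal and C/EBP list and 0 zinc finger genes fell. Centring made 36.5% of called genes higher, against 47.1%.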
